A study of Mus musculus with 12 samples.

Results

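The sarcomere and myosin genes described here are 39 genes of the contractile apparatus of striated muscle, taken by symbol from the deposited expression tables, which list 30154 genes. All 39 were found and all 39 passed the filter on low counts, as did 15890 genes in all. They comprise 6 myosin heavy chains, 5 myosin light chains, 13 thin filament genes (actins, tropomyosins, troponins and nebulin), 3 myosin-binding proteins, 8 genes of the Z-disc and of the structures around it, and 4 of titin and the M-band. By textbook use of their isoforms, 5 were taken as developmental (Myh3, Myh8, Myl4, Actc1, Tnnt2), 11 as adult fast, 9 as adult slow and 14 as shared between fibre types.

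RNA was sequenced in bulk from muscle stem cells sorted by flow cytometry from hind limb muscles of C57BL/6J mice aged 2-3 months. Mice were wild type or carried the Sestrin1,2 knockout, which by its name targets the stress-induced proteins sestrin 1 and sestrin 2, and cells were taken before injury (day 0) and 7 and 21 days after it. Each of the 6 combinations of genotype and day had 2 libraries, 12 in all, so that n = 2 for every group value. The labels give neither the kind of injury, nor the kind of knockout allele, nor whether the 2 libraries of a group came from separate animals, so the p-values measure only the spread between these libraries, which may be technical.

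A sarcomere is the repeating contractile unit of a muscle fibre, in which myosin heads on the thick filament pull on actin of the thin filament and troponin and tropomyosin switch the contact on with calcium. The heavy chain sets the speed of contraction, and muscle exchanges its heavy chains as it matures. Embryonic (Myh3) and neonatal (Myh8) chains are made in the developing embryo and again when fibres regenerate, and are then replaced by slow (Myh7) or fast (Myh2, Myh1, Myh4) adult chains. A resting muscle stem cell makes no sarcomeres; it builds them after it has differentiated and fused. RNA of the adult isoforms in a sort of stem cells can therefore also come from fibre fragments, and the cells that wrap vessels use some of the same tropomyosins and desmin.

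Total estimated counts were 28396780 to 38950514 per library. The knocked-out gene Sesn2 was at 75.1 and 84.3 CPM in wild type and 5.47 and 7.03 CPM in knockout at day 0, where CPM are counts scaled to the size of the library. Although it was lower in both knockout libraries at day 0 and at day 7, edgeR did not call Sesn2 on either day (adjusted p = 0.058 and 0.170). Sesn1 was at 70.4 and 68.6 CPM in wild type against 46.0 and 45.8 CPM in knockout at day 0, a difference that was not called (edgeR adjusted p = 0.144), and at day 7 it was called lower in knockout (adjusted p = 0.0301). At day 21 Sesn2 went against 2 labels: of the libraries labelled wild type, replicate 1 had 8.92 CPM and replicate 2 had 82.1 CPM, and of those labelled knockout, replicate 1 had 9.86 CPM and replicate 2 had 108 CPM. The 2 libraries that Sesn2 contradicts are thus replicate 1 labelled wild type and replicate 2 labelled knockout. Day 21 is therefore given first as the mean over both labels, and by label only afterwards. The muscle stem cell marker Pax7 was at 10.2 to 60.2 CPM, and the leukocyte marker Ptprc at 0 to 9.0 CPM. In TPM, a level scaled for transcript length that allows genes to be compared, 10 immune genes summed to 2032 to 3514 TPM at day 0, 368 to 577 TPM at day 7 and 719.6 to 1019 TPM at day 21, and 5 red blood cell genes to 329 to 3552 TPM over all libraries. Markers of other cells were abundant: the smooth muscle and pericyte actin Acta2 was at 2443 to 10210 CPM, and 10 genes of fibro-adipogenic cells summed to 10590 to 20700 TPM.

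Of the 6 heavy chains, 5 lie side by side on the plus strand of chromosome 11 (GENCODE M21, GRCm38). In their order along the chromosome they are the embryonic Myh3 (ENSMUSG00000020908, 67078300 to 67102291), the fast type 2A chain Myh2 (ENSMUSG00000033196, 67171027 to 67197517), the fast type 2X chain Myh1 (ENSMUSG00000056328, 67200052 to 67224575), the fast type 2B chain Myh4 (ENSMUSG00000057003, 67238029 to 67260446) and the neonatal Myh8 (ENSMUSG00000055775, 67277124 to 67308634). The slow chain Myh7 (ENSMUSG00000053093) lies on the minus strand of chromosome 14, from 54970684 to 54994626. The promoter of each of the 5 neighbours is shown, as 250 bases before to 50 after the start in RefSeq (GRCm38.p6, plus strand, 5′ to 3′). Capitals mark the longest run of letters that Myh8, Myh2, Myh1 and Myh4 have in common.
Myh3, chr11:67078050-67078349: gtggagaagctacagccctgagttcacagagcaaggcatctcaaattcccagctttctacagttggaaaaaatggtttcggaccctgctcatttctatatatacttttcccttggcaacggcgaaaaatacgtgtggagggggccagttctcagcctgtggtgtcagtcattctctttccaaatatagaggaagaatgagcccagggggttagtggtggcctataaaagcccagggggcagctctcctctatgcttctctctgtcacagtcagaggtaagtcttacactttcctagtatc
Myh8, chr11:67276874-67277173: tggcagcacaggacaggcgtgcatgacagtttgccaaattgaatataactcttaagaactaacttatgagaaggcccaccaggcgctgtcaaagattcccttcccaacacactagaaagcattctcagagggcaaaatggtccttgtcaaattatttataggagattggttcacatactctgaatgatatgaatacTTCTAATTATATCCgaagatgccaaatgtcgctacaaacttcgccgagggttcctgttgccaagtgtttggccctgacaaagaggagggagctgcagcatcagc
Myh2, chr11:67170777-67171076: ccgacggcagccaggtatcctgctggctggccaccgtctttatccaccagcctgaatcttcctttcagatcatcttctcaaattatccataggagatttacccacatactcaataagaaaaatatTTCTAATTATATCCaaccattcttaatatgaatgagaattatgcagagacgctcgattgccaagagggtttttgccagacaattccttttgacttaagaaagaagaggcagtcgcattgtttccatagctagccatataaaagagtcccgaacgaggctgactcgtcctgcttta
Myh1, chr11:67199852-67200151: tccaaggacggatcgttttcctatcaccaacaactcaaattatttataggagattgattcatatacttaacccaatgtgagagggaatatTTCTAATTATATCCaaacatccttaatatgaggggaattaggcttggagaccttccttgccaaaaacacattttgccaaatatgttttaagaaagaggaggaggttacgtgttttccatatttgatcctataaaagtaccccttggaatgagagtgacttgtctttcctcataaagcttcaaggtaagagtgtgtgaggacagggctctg
Myh4, chr11:67237562-67237861: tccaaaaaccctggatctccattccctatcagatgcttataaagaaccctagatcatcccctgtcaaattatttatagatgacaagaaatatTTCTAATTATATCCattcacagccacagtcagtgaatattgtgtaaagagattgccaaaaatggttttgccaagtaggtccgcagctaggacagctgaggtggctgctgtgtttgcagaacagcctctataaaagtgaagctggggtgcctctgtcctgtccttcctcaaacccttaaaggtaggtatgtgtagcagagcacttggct

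The 14-letter run TTCTAATTATATCC lay 160 bases before the start of Myh1, 158 before that of Myh4, 125 before that of Myh2 and 54 before that of Myh8. Searched on both strands, it was in 4 of 32851 mouse promoters of the same length, those of these 4 genes, or 0.012%, and its letters were not in the window of Myh3. The run was picked as common to these 4 genes, so its presence there was fixed in advance and the share is no test. Over the 38 promoters of the 32 members matched by symbol, the E-box letters CANNTG were in 33, or 86.8%, and in 72.3% of all promoters. The form CAGCTG, which CANNTG includes, was in 42.1% of the members' promoters and 16.3% of all. TATAAA or TTTATA, the same letters read on the other strand, was in 28.9% and 13.6%. These are matches of letters, not sites of binding.

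Across the time course most members were low at day 0, rose steeply by day 7 and fell back by day 21. Together the 39 took 0.681% to 0.995% of the TPM of a library at day 0, 1.05% to 1.95% at day 7 and 0.457% to 0.623% at day 21. At day 0 that sum was mostly Tpm2, at 3358 to 5417 TPM, with Tpm1 at 1500 to 1995 TPM, Des at 430 to 704 TPM and Tpm3 at 288 to 322 TPM. No other member reached 100 TPM then. At day 7 Tpm2 remained the most abundant by mean TPM, and the fast light chain Myl1 (973 to 1904 TPM) and the skeletal actin Acta1 (998 to 2021 TPM) followed. In bulk RNA, fewer cells of a kind and less RNA per cell cannot be told apart.

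**Figure D1:**
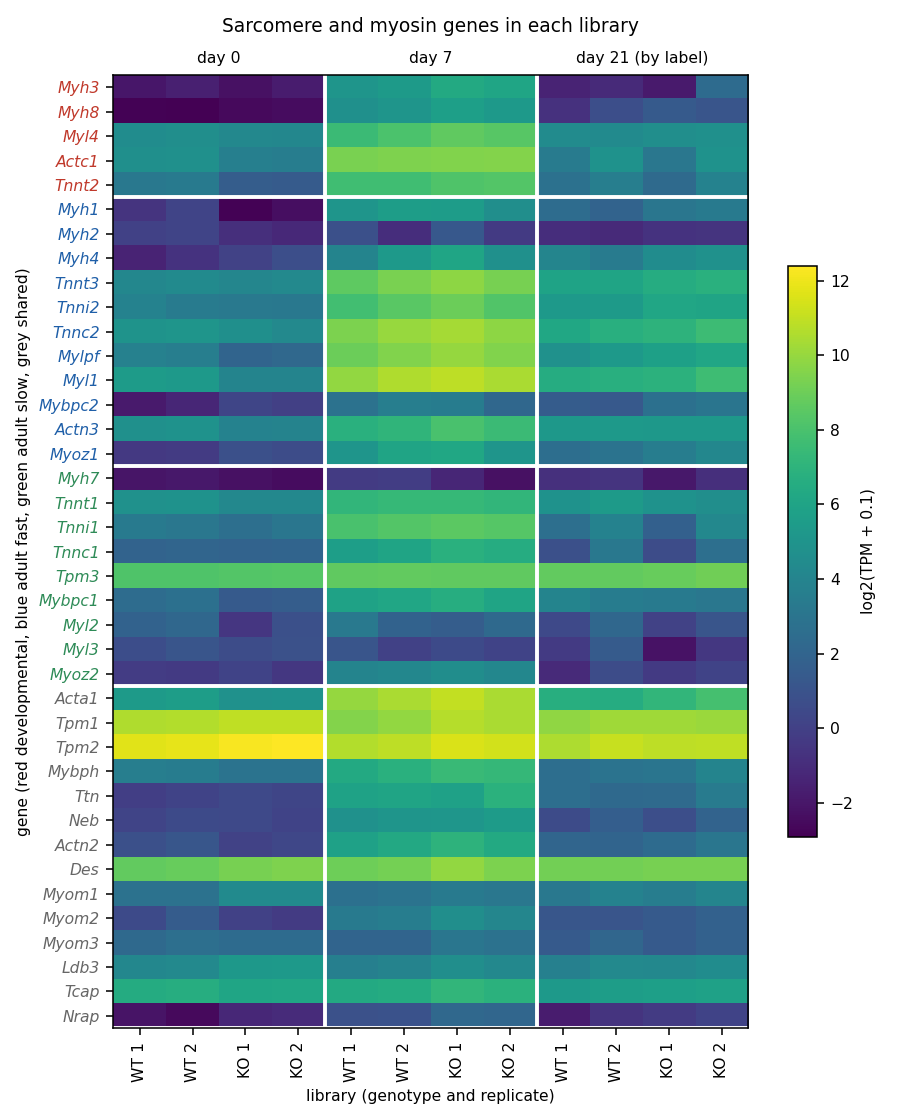
Level of each of the 39 sarcomere and myosin genes (rows, grouped by isoform class) in each of the 12 libraries (columns, by day, genotype and replicate), as log2(TPM + 0.1). The day 7 columns are the brightest in most rows, while Tpm1, Tpm2, Tpm3 and Des are bright in all 12 columns and Myh2, Myh7, Myl2 and Myl3 are dim throughout.

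The embryonic and neonatal heavy chains went from near absence to prominence by day 7. Myh3 was at 0.750 and 1.11 CPM in wild type and 0.517 and 0.921 CPM in knockout at day 0, from 17 to 42 counts. At day 7 it reached 142 and 182 CPM in wild type and 358 and 295 CPM in knockout. Every day 7 library thus lay far above every day 0 library, in both genotypes. In edgeR's quasi-likelihood test, whose p-values are adjusted by Benjamini-Hochberg over all 15890 genes and called under 0.05, Myh3 rose by a log2 fold change of 7.43 ± 1.22 (SE; adjusted p = 0.0015) in wild type and 8.85 ± 1.30 (adjusted p = 0.000792) in knockout. Myh8 was at 0.158 to 0.368 CPM at day 0, from only 6 to 11 counts, and at day 7 at 112 and 137 CPM in wild type and 226 and 168 CPM in knockout. Its log2 fold change by edgeR was 9.47 ± 0.67 (adjusted p = 1.17e-05) in wild type and 9.12 ± 0.64 (adjusted p = 8.09e-06) in knockout.

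The fast adult chains Myh1 and Myh4 rose as well, in the same libraries. Myh1 was at 2.28 and 2.61 CPM in wild type and 0.182 and 0.442 CPM in knockout at day 0, from 73, 99, 6 and 12 counts. At day 7 it reached 123 and 170 CPM in wild type and 174 and 87.1 CPM in knockout. The genotypes did not overlap at day 0 and did at day 7. By edgeR the log2 fold change of Myh1 was 5.90 ± 0.42 (adjusted p = 8.06e-06) in wild type and 8.74 ± 0.53 (adjusted p = 2.67e-06) in knockout. Myh4 went from 1.34 and 2.59 CPM in wild type and 4.62 and 7.44 CPM in knockout to 66.7 and 170 CPM, and 288 and 118 CPM. Its edgeR log2 fold change was 5.89 ± 0.72 (adjusted p = 0.000325) in wild type and 5.08 ± 0.67 (adjusted p = 0.000432) in knockout.

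Myh2 and Myh7 stayed at a few CPM on every day. Myh2 was at 4.56 and 5.38 CPM in wild type and 1.76 and 1.40 CPM in knockout at day 0, and the day 7 libraries held 5.96, 1.40, 9.35 and 1.85 CPM in the same order. The replicates of day 7 differed by several-fold in each genotype, and the edgeR change was -0.43 ± 0.73 (adjusted p = 0.661) in wild type and 1.83 ± 0.77 (adjusted p = 0.0764) in knockout. The knockout change passed the test in 5 of 24 alternatives, with the lowest adjusted p, 0.0136, in edgeR without knockout replicate 2 of day 7. Myh7 was at 0.405 to 0.739 CPM at day 0, and at day 7 at 3.16 and 3.39 CPM in wild type and 1.35 and 0.390 CPM in knockout. It rose in wild type, by 2.26 ± 0.64 on the log2 scale (edgeR adjusted p = 0.0156), and did not pass the test in knockout, at 0.97 ± 0.66 (adjusted p = 0.258). The difference between these changes, -1.28 ± 0.92, did not pass the edgeR test either (adjusted p = 0.392), and the wild-type call was lost without either day 0 library or without replicate 2 of day 7.

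As a share of the 6 heavy chains' TPM, a description that was not tested, the developmental pair held 8.38% to 11.7% at day 0, when the 6 together came to only 1.77 to 3.09 TPM. At day 7 the sum was 112 and 168 TPM in wild type and 251 and 160 TPM in knockout. The developmental share was then 53.8% and 45.8% in wild type, and in knockout 53.7% and 67.2%, with nearly all the rest in Myh1 and Myh4. At day 21 the sum was 17.3 to 47.1 TPM. Myh1 and Myh4 held 92.9% and 83.3% of it under the wild-type label, and under the knockout label 90.1% and 82.5%, against 3.28%, 11.3%, 7.89% and 15.4% for the developmental pair. The heavy chain RNA of day 7 was thus split between developmental and fast adult chains, and that of day 21 was mostly fast adult.

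**Figure D2:**
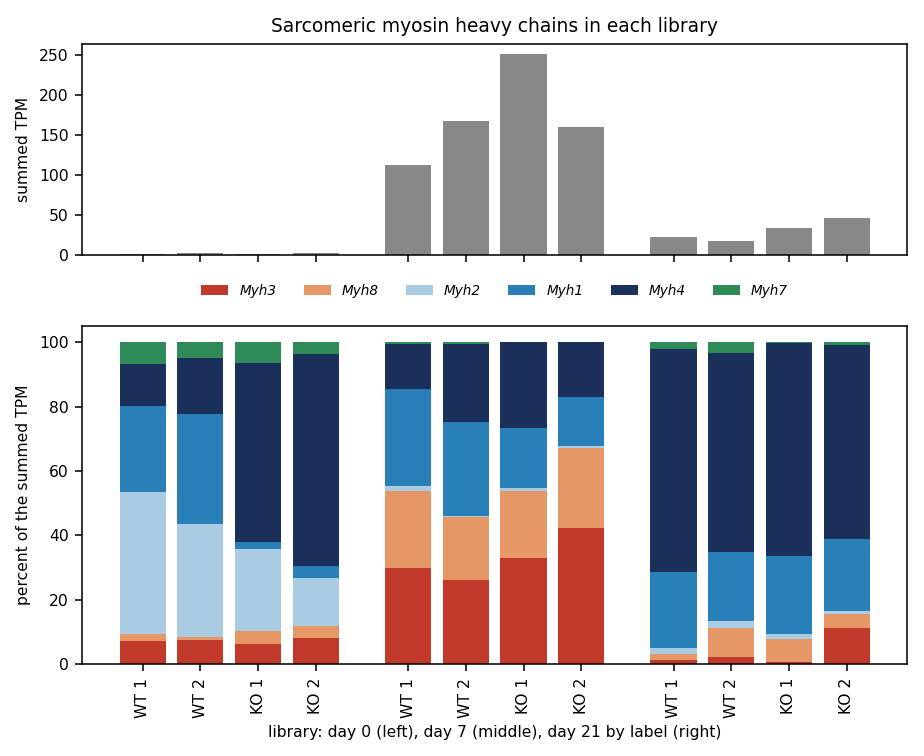
Summed TPM of the 6 sarcomeric heavy chains in each library (upper panel) and the percent of that sum in each chain (lower panel). The sum is at most 3.09 TPM at day 0 and reaches 251 TPM at day 7; Myh3 and Myh8 (red and orange) fill 45.8% to 67.2% of the day 7 bars and at most 15.4% of the day 21 bars.

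Most of the 39 genes were called higher at day 7. In wild type 29 of the 39 members were called higher at day 7 than at day 0 and 4 lower, where of all genes tested 47.0% were called, 25.8% higher and 21.2% lower. In knockout 30 rose and 4 fell, and of all genes tested 46.9% were called, 24.7% higher and 22.2% lower. The members' median log2 fold change was 4.03 in wild type and 4.52 in knockout, and that of all genes tested was 0.06 and 0.03. The calls were for largely the same genes, with 28 called higher in both genotypes and 3 (Ldb3, Tpm1, Tpm2) lower in both. All 5 developmental genes and 10 of the 11 adult fast genes rose in both genotypes, the exception being Myh2. Of the 9 adult slow genes 7 rose in wild type and 6 in knockout, with Myl2 and Myl3, light chains of slow and cardiac muscle, called in neither. Of the 14 shared genes 7 rose and 4 fell in wild type, and 9 rose and 4 fell in knockout.

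Among the light chains, which stiffen and regulate the myosin neck, the fast regulatory chain Mylpf rose most. It was at 5.59 and 4.96 CPM in wild type and 1.49 and 1.84 CPM in knockout at day 0. By day 7 the level had reached 171 and 248 CPM in wild type and 358 and 252 CPM in knockout. The 4 libraries of a day did not overlap with those of the other, and the edgeR log2 fold change was 5.31 ± 0.25 (adjusted p = 7.28e-07) in wild type and 7.52 ± 0.29 (adjusted p = 1.47e-07) in knockout. Myl1, the fast essential chain, went from 16.3 and 14.6 CPM to 363 and 569 CPM in wild type, an edgeR log2 fold change of 4.92 ± 0.28 (adjusted p = 1.82e-06). In knockout Myl1 went from 6.26 and 6.15 CPM to 737 and 533 CPM. The embryonic and atrial chain Myl4 went from 12.6 and 14.5 CPM to 90.2 and 127 CPM in wild type, and from 9.49 and 9.43 CPM to 199 and 170 CPM in knockout. Its edgeR log2 fold changes were 3.00 ± 0.17 (adjusted p = 9.73e-07) and 4.29 ± 0.18 (adjusted p = 1.5e-07).

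Of the 13 thin filament genes 11 rose and 2, the tropomyosins Tpm1 and Tpm2, fell in each genotype. The fast troponin T gene Tnnt3, whose product ties troponin to tropomyosin, was at 10.3 and 12.1 CPM in wild type at day 0 and reached 201 and 314 CPM by day 7. That is an edgeR log2 fold change of 4.52 ± 0.25 (adjusted p = 1.3e-06). Its slow counterpart Tnnt1 went from 9.46 and 8.80 CPM in the knockout to 75.5 and 66.9 CPM by day 7, a log2 fold change of 2.96 ± 0.15 (edgeR adjusted p = 3.65e-07). Slow and fast troponins thus rose side by side. The cardiac actin Actc1, which skeletal muscle uses in development, went from 11.4 to 26.3 CPM at day 0 to 520 to 637 CPM at day 7. Tpm3, the slow tropomyosin, of which other cells also make isoforms, was called higher by only 0.30 ± 0.09 in wild type (edgeR adjusted p = 0.0174) and 0.32 ± 0.09 in knockout (adjusted p = 0.0126).

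At the Z-disc, the plate that anchors thin filaments, the fast fibre actinin Actn3 went from 26.4 and 28.4 CPM to 482 and 328 CPM in knockout, a log2 fold change of 3.88 ± 0.18 (edgeR adjusted p = 2.7e-07). Actn2, its partner in all fibres, rose by 4.90 ± 0.29 in wild type and 6.53 ± 0.32 in knockout on the log2 scale. Desmin (Des), the intermediate filament that links neighbouring Z-discs, was at 758 to 1051 CPM at day 0 and 771 to 1467 CPM at day 7 and passed the test in neither genotype. Titin (Ttn), the spring that spans the sarcomere from Z-disc to M-band, rose from 4.28 and 4.54 CPM to 234 and 243 CPM in wild type, by 5.76 ± 0.43 on the log2 scale. All 3 myosin-binding genes, Mybpc1, Mybpc2 and Mybph, rose in both genotypes.

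**Figure D3:**
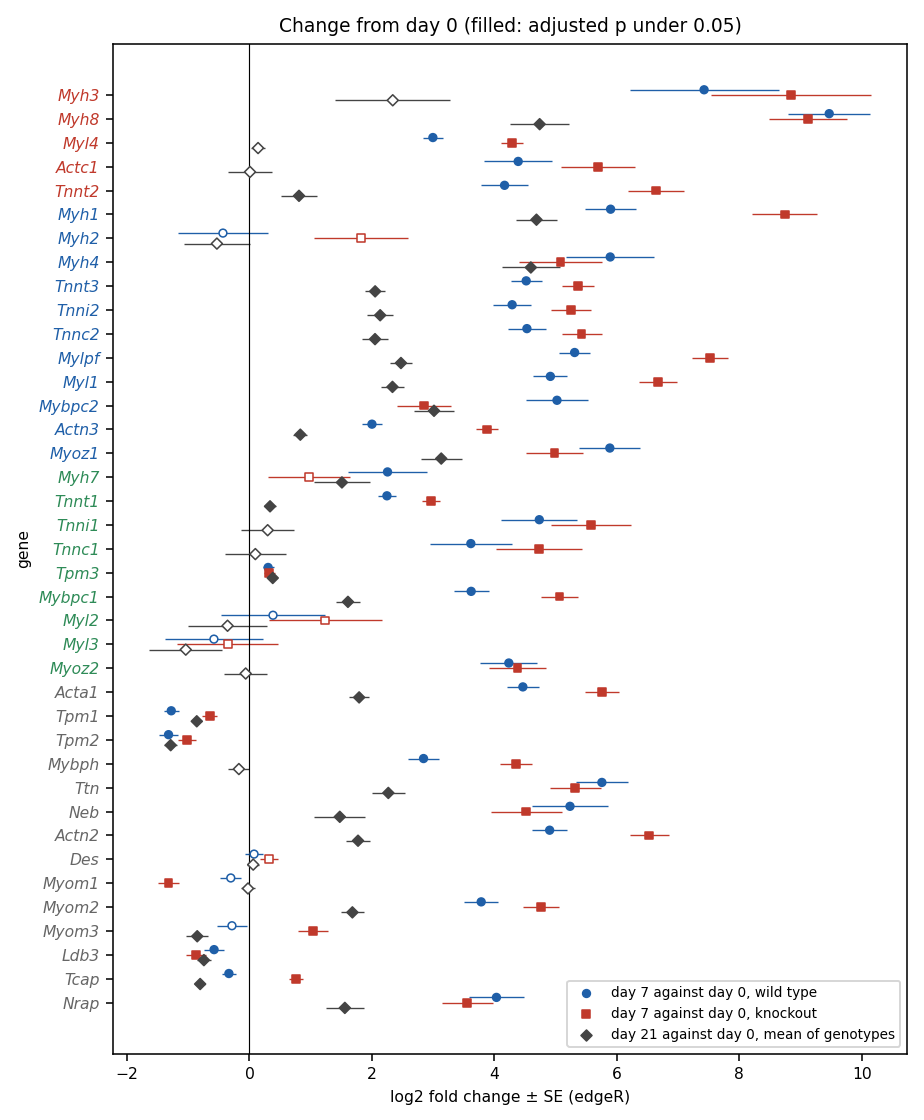
Log2 fold change ± SE from the edgeR fit for each member, for day 7 against day 0 in wild type (blue circles) and knockout (red squares) and for day 21 against day 0 over both genotypes (grey diamonds). Filled symbols have an adjusted p under 0.05. Most day 7 symbols lie between 2 and 9 to the right of 0, and for most of the rising genes the diamond lies to their left.

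The members that fell included the most abundant of day 0. Tpm2 was at 2635 and 2866 CPM in wild type and 3648 and 3992 CPM in knockout at day 0; by day 7 these had become 1017 and 1184 CPM, and 1993 and 1762 CPM. It fell by 1.32 ± 0.15 on the log2 scale in wild type (edgeR adjusted p = 6.6e-05) and fell by 1.03 ± 0.15 in knockout (adjusted p = 0.000287). Tpm1 went from 1877 and 1956 CPM to 726 and 856 CPM in wild type and from 2282 and 2280 CPM to 1532 and 1377 CPM in knockout. It fell by 1.28 ± 0.12 in wild type (edgeR adjusted p = 2.16e-05) and fell by 0.65 ± 0.12 in knockout (adjusted p = 0.00133). In CPM both tropomyosins were lower in every day 7 library than in any day 0 library. In TPM this held for Tpm2, while Tpm1 in knockout replicate 1 of day 7, at 1659 TPM, lay above both wild-type libraries of day 0, at 1500 and 1563 TPM. The knockout fall of Tpm1 lost the call in 3 of 24 alternatives, all limma on log2 TPM, where the change was -0.36 and the highest adjusted p was 0.102.

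Ldb3 of the Z-disc and Myom1 of the M-band fell as well. Ldb3, a Z-disc scaffold, went from 45.4 and 46.0 CPM to 27.8 and 33.4 CPM in wild type and from 79.6 and 85.9 CPM to 49.5 and 41.0 CPM in knockout. It fell by 0.58 ± 0.16 (edgeR adjusted p = 0.0143) and fell by 0.87 ± 0.16 (adjusted p = 0.0014), respectively. The wild-type call was lost in 5 of 24 alternatives, among them without wild-type replicate 2 of day 0 and replicate 1 of day 7, at adjusted p up to 0.184. Myom1, a myomesin that cross-links thick filaments at the M-band, went from 90.1 and 92.5 CPM to 38.2 and 34.8 CPM in knockout. It fell by 1.32 ± 0.17 there (edgeR adjusted p = 0.00015) and was not called in wild type. Tcap, the telethonin that caps titin at the Z-disc, was called in opposite directions: it fell by 0.34 ± 0.12 in wild type (edgeR adjusted p = 0.0392), a call lost in 8 of the 24 alternatives, and was called higher in knockout at 0.76 ± 0.12.

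Markers of smooth muscle and pericytes fell at the same time: 7 of 10 were called lower in wild type and 8 of 10 in knockout. Their summed level was 11550 to 17140 TPM at day 0 and 4202 to 6774 TPM at day 7, and Acta2 itself fell by 1.5 in wild type and fell by 1.40 in knockout on the log2 scale. Their part in the fall of the tropomyosins and Ldb3 was not tested. The counts deposited for Tpm1 also carried a trace of which transcripts were counted, because the ratio of estimated counts to TPM gives the mean length of the transcripts. For Tpm1 that length was 1760 and 1745 bases in the wild-type and 1735 and 1664 in the knockout libraries of day 0. By day 7 the length was 1599 and 1529 in the wild-type and 1525 and 1579 in the knockout libraries, and at day 21 it was 1613 to 1669. Every day 7 library was thus below, and every day 21 library between, apart from the day 0 knockout replicate at 1664 bases, which lay just under the highest of day 21. For Tpm2 the length moved within 1166 to 1215 bases.

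By day 21 most members had fallen again, the 5 developmental genes among them. Over both genotypes 28 of the 39 members were called lower at day 21 than at day 7 and 1, Myom1, higher, where of all genes tested 56.8% were called, 28.4% lower and 28.4% higher. The median log2 fold change of the members was -2.63, and that of all genes tested 0.01. All 5 developmental genes fell, as did 9 of 11 adult fast, 5 of 9 adult slow and 9 of 14 shared genes. The mean CPM left at day 21, as a percent of that at day 7, had a median of 4.02% over the developmental genes (2.68% to 8.59%) and of 16.8% over the adult fast genes (6.7% to 59.2%). It was 21.1% over the adult slow genes (3.41% to 105%) and 30.1% over the shared genes (6.52% to 171%). The ranges overlap: the slow troponin I gene Tnni1, at 3.41%, kept less of its day 7 level than Myh8, at 4.5%. Without the 2 libraries that Sesn2 contradicts, which leaves 1 library per label at day 21, most members were still called lower than at day 7. The medians describe classes chosen with the results known and were not compared by a test.

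Myh3 at day 21 was at 1.33 and 1.56 CPM under the wild-type label, and at 0.850 and 22.5 CPM under the knockout label. A single library therefore held most of the Myh3 of that day. Against day 7 Myh3 fell by 5.80 ± 0.77 on the log2 scale (edgeR adjusted p = 0.000301). Myh8 was at 1.95, 6.86, 11.5 and 8.62 CPM in the same order and fell by 4.56 ± 0.33 (edgeR adjusted p = 6.4e-06). Myh1, at 20.0, 13.0, 28.7 and 31.6 CPM, fell by 2.63 ± 0.24 (edgeR adjusted p = 1.94e-05). Myh4, at 77.6, 46.4, 105 and 121 CPM, overlapped with its day 7 values and did not pass the test, at -0.89 ± 0.39 (edgeR adjusted p = 0.085); without wild-type replicate 1 or knockout replicate 2 of day 7 it passed, at -1.15 and -1.14. Myh2 (-1.23 ± 0.53, adjusted p = 0.0739) and Myh7 (-0.10 ± 0.44, adjusted p = 0.861) did not pass the edgeR test either, though Myh2 passed in 4 of 23 alternatives, with the lowest adjusted p, 0.0124, without knockout replicate 2 of day 7.

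The sharpest falls by adjusted p lay in light chains, troponin and myosin-binding protein H. Myl4 was at 11.2, 11.1, 13.6 and 14.4 CPM at day 21 and fell by 3.5 ± 0.12 (edgeR adjusted p = 5.42e-08). Mylpf, at 11.0, 13.1, 20.3 and 24.5 CPM, fell by 3.94 ± 0.16 (edgeR adjusted p = 1.67e-07). Tnnt1, at 14.9, 19.1, 12.9 and 11.2 CPM, fell by 2.27 ± 0.10 (edgeR adjusted p = 1.87e-07). Each of these was lower in every day 21 library than in any day 7 library. Mybph, at 7.71, 8.59, 9.75 and 17.9 CPM, fell by 3.77 ± 0.18 (edgeR adjusted p = 3.4e-07). Myom1 was alone in rising, by 0.79 ± 0.12 (edgeR adjusted p = 0.000297), to 39.5, 58.0, 51.0 and 64.6 CPM. The smooth muscle and pericyte list also rose between these days, with 8 of 10 genes called higher and Acta2 at 0.41 on the log2 scale; its part in the rise of Myom1 was not tested.

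Nearly all adult fast genes were still above their day 0 level at day 21. Of the 39 members 22 were called higher than at day 0 and 5 lower, where of all genes tested 45.9% were called, 25.0% higher and 20.8% lower. Among the adult fast genes 10 of 11 were called higher, and in those 10 all 4 libraries of day 21 lay above all 4 of day 0, an order that 15.6% of all genes tested showed. Myh2 was the exception, at -0.53 ± 0.54 (edgeR adjusted p = 0.454). Of the developmental genes 2 of 5 were called higher, of the adult slow 4 of 9, and of the shared 6 of 14 were higher and 5 lower. Without the 2 libraries that Sesn2 contradicts, in a fit with 1 library per label at day 21, more members were again called higher than lower.

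In the values, Myh1 was higher at day 21 than at day 0 by 4.69 ± 0.33 on the log2 scale (edgeR adjusted p = 9.98e-06) and Myh4 by 4.60 ± 0.48 (adjusted p = 0.000151). Mylpf was higher by 2.47 ± 0.18 (edgeR adjusted p = 6.26e-06), Tnnt3 by 2.05 ± 0.16 (adjusted p = 1.23e-05) and Myl1 by 2.34 ± 0.18 (adjusted p = 1.27e-05). Tnnt3 stood at 35.8, 33.2, 51.0 and 58.2 CPM and Myl1 at 41.3, 40.4, 48.6 and 71.0 CPM. The neonatal Myh8 was also still higher, by 4.74 ± 0.49 (edgeR adjusted p = 9.85e-05), although at 1.95 to 11.5 CPM it had little RNA left. Myh3 did not pass the test, at 2.34 ± 0.94 (edgeR adjusted p = 0.0756), and without replicate 2 labelled knockout its change was 0.45; without replicate 1 of the same label it passed, at 2.81. Myh7, at 1.39, 2.46, 0.665 and 1.92 CPM, was called higher at 1.51 ± 0.46 (edgeR adjusted p = 0.0216). That call was lost without any 1 of the 4 day 0 libraries or of the 2 replicate 2 libraries of day 21, at 1.03 to 1.58.

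Below day 0 at day 21 were Tpm2, by -1.29 ± 0.11 (edgeR adjusted p = 1.16e-05), Tpm1, by -0.86 ± 0.09 (adjusted p = 3.36e-05), Tcap, by -0.81 ± 0.09 (adjusted p = 4.96e-05), and Ldb3, by -0.74 ± 0.12 (adjusted p = 0.000503). Tpm2 was at 1119 to 1538 CPM and Tpm1 at 1018 to 1248 CPM in the 4 libraries, and Tcap at 22.5 to 28.0 CPM. No day 21 library of these 4 genes reached the lowest library of day 0. Myom3 was the fifth called lower. Of the smooth muscle and pericyte list 7 of 10 genes were also lower than at day 0, with a summed level of 5903 to 8413 TPM; its part was not tested here either.

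Some genes of mature fibres outside the sarcomere were also still above day 0. Of 14 genes of fibre metabolism and calcium handling 9 were higher at day 21 than at day 0, 1 was lower and 4 were not called, where of all genes tested 25.0% were higher and 20.8% lower. Ckm, the muscle creatine kinase, went from 4.78 to 6.89 CPM at day 0 to 76.5 to 211 CPM at day 7 and 22.4 to 75.2 CPM at day 21. It was higher at day 21 than at day 0 by 2.87 ± 0.29 on the log2 scale (edgeR adjusted p = 8.78e-05). Pvalb, the calcium buffer of fast fibres, was higher by 3.46 ± 0.32 (edgeR adjusted p = 3.23e-05), with 10.8 to 24.2 CPM at day 21. Mb, the oxygen store myoglobin, was called higher by only 0.78 ± 0.16 (edgeR adjusted p = 0.00242), and its libraries of the 2 days overlapped. A regulator that switches differentiation on took another course: Myog, the transcription factor of terminal differentiation, was at 31.6 to 90.9 CPM at day 0, 763 to 1005 CPM at day 7 and 32.4 to 114 CPM at day 21 (day 21 against day 0, log2 fold change 0.35 ± 0.36, edgeR adjusted p = 0.465). Whether the adult fast RNA of day 21 lay in the sorted cells or in fibre fragments carried with them was not tested.

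The genotypes differed in members at rest. At day 0, 5 of the 39 were called higher in knockout and 11 lower, where of all genes tested 27.4% were called, 14.8% higher and 12.6% lower. Both knockout libraries lay below both wild-type libraries for 22 members, 56.4%, and above for 12, 30.8%, where all genes tested gave 37.1% and 38.0%. Those lower were Myh1, the light chains Mylpf, Myl1 and Myl4, Acta1, Tnnt1, Tnnt2, Mybpc1, Actn2, Actn3 and Tcap, and those higher Mybpc2, Nrap, Myom1, Ldb3 and Tpm2. Leaving out any 1 of the 4 day 0 libraries leaves 1 library in that group. Fewer members and fewer of all genes were then called.

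Actn3 was at 55.8 and 56.3 CPM in wild type and 26.4 and 28.4 CPM in knockout, a log2 fold change of -1.03 ± 0.16 (edgeR adjusted p = 0.00208). Mylpf was lower by -1.67 ± 0.27 (edgeR adjusted p = 0.00255) and Myl1 by -1.31 ± 0.26 (adjusted p = 0.00635), from the day 0 values given above. Mylpf kept its call in all 24 alternatives, and Myl1 lost it in 1, with changes from -1.495 to -1.227. For Myh1 the fold change was -3.01 ± 0.61 (edgeR adjusted p = 0.00734), and without knockout replicate 1 it was -2.46 and no longer passed. Its call was lost in 3 of 23 alternatives, over which the change ranged from -3.71 to -0.75. The highest adjusted p, 0.164, came from limma on log2(TPM + 1) without a filter.  The other heavy chains did not pass the edgeR test at day 0: Myh2 at -1.65 ± 0.76 (adjusted p = 0.138), Myh4 at 1.59 ± 0.70 (adjusted p = 0.131), Myh8 at 1.01 ± 1.14 (adjusted p = 0.554), Myh7 at -0.61 ± 0.67 (adjusted p = 0.542) and Myh3 at -0.41 ± 1.59 (adjusted p = 0.887).

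Myom1 had the smallest adjusted p of the members higher in knockout at day 0. This gene was at 31.1 and 32.8 CPM in wild type and 90.1 and 92.5 CPM in knockout, a log2 fold change of 1.52 ± 0.18 (edgeR adjusted p = 0.000591). Ldb3 was higher by 0.86 ± 0.16 (edgeR adjusted p = 0.00431). The thin filament organiser Nrap, at 0.531 and 0.290 CPM in wild type and 1.34 and 1.55 CPM in knockout, was higher by 1.82 ± 0.46 (edgeR adjusted p = 0.0165), and the fast myosin-binding protein Mybpc2, at 0.531 and 0.897 against 2.98 and 2.47 CPM, by 1.91 ± 0.51 (adjusted p = 0.0207). These 2 are very low, and leaving out 1 day 0 library ended the call for Nrap at 1.44 (wild-type replicate 2) and 1.72 (knockout replicate 2), and for Mybpc2 at 1.61 to 2.36 (any of the 4). The smooth muscle and pericyte list summed to 11550 and 11900 TPM in wild type and 17100 and 17140 TPM in knockout at day 0, with 3 of its 10 genes called higher; Acta2 was higher by 0.53 and Myh11, the smooth muscle myosin, by 0.97 on the log2 scale. Its part in the higher Myom1, Ldb3 and Tpm2 was not tested. Muscle stem cell markers were lower in knockout in 7 of 9, with Pax7 at 24.5 and 27.2 CPM against 10.2 and 13.9 CPM, and their part in the lower members was not tested. Myog stood the same way, at 85.9 and 90.9 against 34.7 and 31.6 CPM. So did the fusion gene Mymk, at 16.3 and 17.25 against 8.15 and 7.03 CPM, though edgeR called neither. Mb was called lower, by -1.36 ± 0.23 (edgeR adjusted p = 0.00257), while Ckm and Pvalb overlapped and 12 differentiation genes summed to more in knockout. Fibro-adipogenic genes summed to 12790 to 12870 TPM against 10590 to 10950 TPM. The part of these was not tested. The red blood cell list summed to 3121 and 3128 TPM in wild type against 782 and 742.5 TPM in knockout, and the immune list to 2032 and 2047 against 3514 and 3406 TPM; their part was not tested either. In these libraries 2 to 4 of the 10 immune genes were listed at 0 and Ptprc had 0 to 4 counts, so that the immune sum rests on a few of its genes.

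At day 7 most members lay higher in knockout. Both knockout libraries lay above both wild-type libraries for 25 of 39, 64.1%, and below for 1, Myh7, where all genes tested gave 24.3% and 23.1%. In the test, however, only 6 were called higher and 0 lower by edgeR, where of all genes tested 1.76% were called, 1.08% higher and 0.680% lower. At an unadjusted p under 0.05 there were 16 higher and 1 lower, against 8.02% and 6.26% of all genes tested. The Wald test of DESeq2 called 11 higher and 0 lower, against 3.32% and 1.69% of all genes. Those called by edgeR were Tpm1, Tpm2, Myl4, Actn3, Myom3 and Tcap. The members' calls were lost without replicate 1 of either genotype at day 7, where far fewer of all genes were called too. Fewer members and fewer of all genes were also called without wild-type replicate 2 of day 7 or any 1 of the 4 day 0 libraries. More of both were called without the 2 day 21 libraries that Sesn2 contradicts. Each of these fits leaves 1 library in a group.

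Tpm1 differed most clearly, at 726 and 856 CPM in wild type and 1532 and 1377 CPM in knockout, a log2 fold change of 0.88 ± 0.12 (edgeR adjusted p = 0.00869). Actn3, at 202 and 247 against 482 and 328 CPM, was higher by 0.85 ± 0.16 (edgeR adjusted p = 0.0293), Tpm2 by 0.77 ± 0.15 (adjusted p = 0.0324) and Myl4 by 0.77 ± 0.15 (adjusted p = 0.0362). The heavy chains showed no difference that passed the edgeR test, with Myh3 at 1.01 ± 0.85 (adjusted p = 0.681), Myh8 at 0.66 ± 0.39 (adjusted p = 0.503), Myh4 at 0.78 ± 0.55 (adjusted p = 0.606), Myh2 at 0.61 ± 0.73 (adjusted p = 0.79), Myh1 at -0.16 ± 0.32 (adjusted p = 0.888) and Myh7 at -1.89 ± 0.63 (adjusted p = 0.197). Some alternatives did call them: Myh3 passed in 4 of 24, among them without either day 21 library labelled knockout (adjusted p = 0.0238 and 0.0239), Myh8 in 2 of 23 and Myh7 in 1 of 22. Smooth muscle and pericyte genes were higher in knockout here too, at 4202 and 4256 TPM in wild type and 6774 and 6661 TPM in knockout, with 4 of 10 called. Their part in the higher Tpm1 and Tpm2 was not tested. Fibro-adipogenic genes also summed to more, at 15620 to 16980 TPM against 17450 to 18120 TPM. Muscle stem cell genes summed to less, at 1163 to 1265 TPM against 971 to 993 TPM, as did 12 differentiation genes, at 3849 to 3979 TPM against 3575 to 3736 TPM. The sums of the 14 fibre genes overlapped. The part of these cells in the order of the members was not tested.

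The replicates of day 7 differed in one direction in most members. Knockout replicate 1 exceeded replicate 2 in 34 of the 39 members, and wild-type replicate 2 exceeded replicate 1 in 36, orders that 52.4% and 45.2% of all genes tested showed. The median ratio over the members was 1.31 in knockout and 1.21 in wild type, and for Actc1, Nrap and Tpm3 the replicates were close. Among the 11 adult fast genes the counts were 11 and 10. Myh4 was the widest of the abundant ones, at 66.7 and 170 CPM in wild type and 288 and 118 CPM in knockout. Titin went the other way in knockout, with 211 CPM in replicate 1 but 412 in replicate 2. Ckm showed the same gap as the adult fast genes, at 76.5 and 146 CPM and 211 and 103 CPM, while Myog did not, at 1005 and 893 CPM and 847 and 763 CPM. The gap was not limited to fibre genes: 10 endothelial genes summed to 157 and 262 TPM in wild type and 227 and 133 TPM in knockout, and 10 immune genes to 398 and 556 TPM and 577 and 368 TPM. The part of these cells in the gap was not tested.

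The size of the change from day 0 to day 7 differed between the genotypes for some members. The interaction was called for 15 members, 14 with a more positive log2 change in knockout and 1, Myom1, with a more negative one, where of all genes tested 13.5% were called, 6.08% more positive and 7.39% more negative. The sign is not the size of the change: among the 14, Tpm1 fell less in knockout (0.65) than in wild type (1.28), and Myom1 fell in knockout. The difference between the log2 changes was 1.88 ± 0.23 for Actn3 (edgeR adjusted p = 0.00201), 1.10 ± 0.17 for Tcap (adjusted p = 0.00481), 2.21 ± 0.34 for Mylpf (adjusted p = 0.00534) and 1.29 ± 0.22 for Myl4 (adjusted p = 0.00729). For Myom1 it was -1.02 ± 0.24 (edgeR adjusted p = 0.0249). The interaction shares its libraries with the genotype comparisons at day 0 and day 7, so a lower knockout level at day 0 and a higher one at day 7 both make it more positive. Knockout against wild type, the log2 fold changes at day 0 and day 7 were -1.67 and 0.54 for Mylpf, -1.03 and 0.85 for Actn3, -0.52 and 0.77 for Myl4, and -0.50 and 0.60 for Tcap.

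Of the heavy chains, Myh1 passed the interaction test, at 2.84 ± 0.70 (edgeR adjusted p = 0.0312), resting on the 6 and 12 counts of the knockout libraries of day 0. Its call was lost in 13 of the 23 alternatives that gave a value, at adjusted p up to 0.588. The other 5 did not pass: Myh2 at 2.26 ± 1.05 (edgeR adjusted p = 0.188), Myh3 at 1.42 ± 1.79 (adjusted p = 0.658), Myh4 at -0.81 ± 0.89 (adjusted p = 0.602), Myh7 as given above and Myh8 at -0.35 ± 1.18 (adjusted p = 0.891). Fits without 1 library leave 1 library in that group. Fewer members were called without any library of day 0, either wild-type library of day 7 or knockout replicate 1 of day 7. Fewer of all genes were called in these fits too, except without knockout replicate 1 of day 7, where their count moved less.

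**Figure D4:**
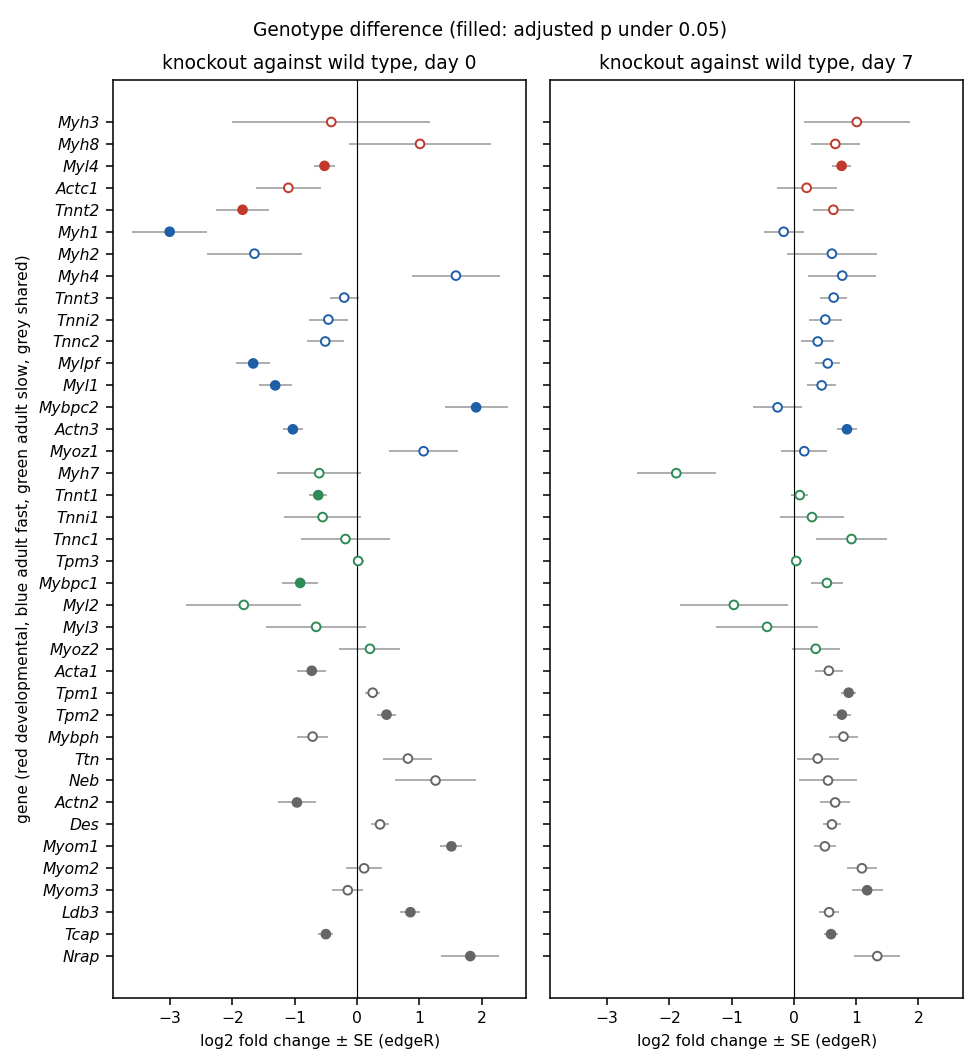
Log2 fold change ± SE of knockout against wild type for each member at day 0 (left) and day 7 (right), by edgeR, on the same scale. Filled points have an adjusted p under 0.05; at day 0 they lie on both sides of 0 (5 higher, 11 lower), and at day 7 the 6 filled points lie to the right.

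At day 21 by label, 0 of the 39 members were called by edgeR in either direction, where of all genes tested 0.0126% were called, 0.00629% higher and 0.00629% lower. Both libraries labelled knockout lay above both labelled wild type for 19 members, 48.7%, and below for 3, 7.69%, where all genes tested gave 19.0% and 19.0%. At an unadjusted p under 0.05 there were 14 higher and 3 lower, against 6.80% and 7.41% of all genes tested. DESeq2 called 3 higher and 0 lower, against 1.31% and 1.68% of all genes, and limma on the authors' batch-corrected values called 1 higher and 0 lower, against 0.308% and 0.500%. Fibre markers stood with the label only in part. Mb overlapped, at 11.2 and 10.8 CPM under the wild-type label and 13.9 and 10.2 CPM under the knockout label. Ckm was at 25.6 and 22.4 CPM under the wild-type label and 60.4 and 75.2 CPM under the knockout label. The 14 metabolic genes of fibres summed to 274 and 342 TPM against 422 and 576 TPM. The 9 muscle stem cell genes stood the other way, at 1645 and 1720 TPM against 1552 and 1311 TPM. The part of fibre or stem cell content in the order of the members was not tested. The largest difference, Myh3 at 3.02 ± 1.10 (edgeR adjusted p = 0.284), came from the 1 library with 22.5 CPM; without it the value was -0.77, and without replicate 1 of the same label it passed the test, at 3.94. The other heavy chains were Myh8 at 1.19 ± 0.44 (edgeR adjusted p = 0.29), Myh1 at 0.87 ± 0.34 (adjusted p = 0.298), Myh4 at 0.86 ± 0.55 (adjusted p = 0.528), Myh2 at 0.43 ± 0.76 (adjusted p = 0.848) and Myh7 at -0.57 ± 0.62 (adjusted p = 0.727). Leaving out the 2 libraries that Sesn2 contradicts leaves 1 library per label and assumes that it varies like those of the other groups. In that fit Myh3 was at -0.87, and more members, all of them lower, and more of all genes were called.

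The day 21 libraries differed more by replicate number than by label in some members, chosen here after their values were seen. Actc1 was at 10.5 and 8.20 CPM in the replicate 1 libraries and 25.2 and 26.1 CPM in the replicate 2 libraries (wild type and knockout by label). The slow troponin I gene Tnni1 was at 3.34 and 2.22 CPM against 7.64 and 10.2 CPM, and the slow troponin C gene Tnnc1 at 0.561 and 0.443 CPM against 2.86 and 1.89 CPM. Both replicate 2 libraries, which are those with high Sesn2, lay above both replicate 1 libraries in 12 of the 39 members, 30.8%, an order that 18.1% of all genes tested showed. Of the 12, 3 were developmental (Actc1, Tnnt2, Myh3), 6 adult slow and 3 shared (Myom1, Myom3, Ldb3), and 0 of the 11 adult fast genes were among them. Myog stood in the same order, at 42.9 and 32.4 CPM against 114 and 88.9 CPM, as did the fusion gene Mymk, at 7.92 and 7.05 CPM against 20.9 and 21.7 CPM. So did the 10 smooth muscle and pericyte genes, summed to 5903 and 7033 TPM against 8413 and 8207 TPM; their part in this order was not tested. The adult fast Tnnt3 and Myh4 instead stood with the labels, higher in both libraries labelled knockout.

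**Figure D5:**
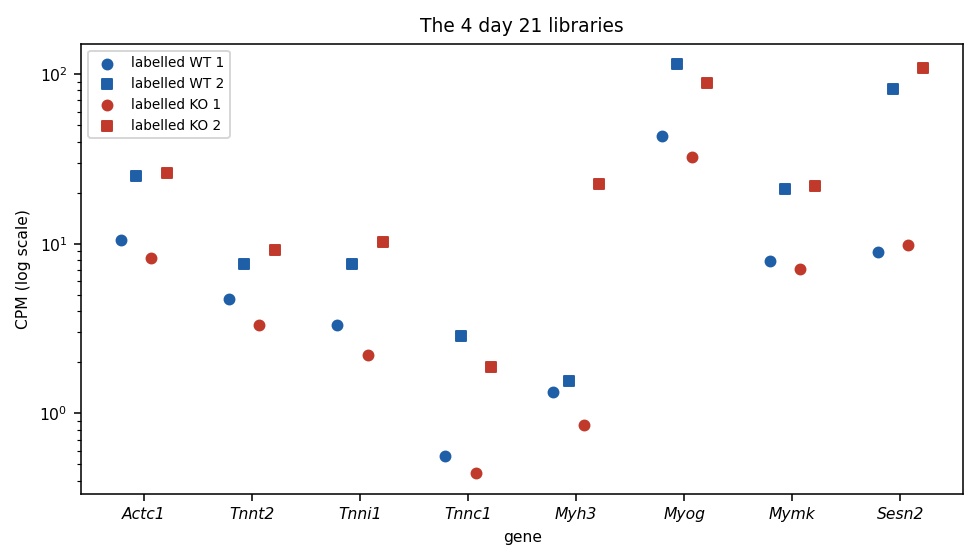
CPM (log scale) of 5 members, of the differentiation genes Myog and Mymk and of the knocked-out Sesn2 in the 4 day 21 libraries, by label (colour) and replicate (circle 1, square 2). For each gene both squares lie above both circles; for Myh3 the square labelled wild type lies only just above the circle of the same label.

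Genes that help build the sarcomere without being part of the 39 moved in both directions. Of 36 assembly genes (chaperones, ubiquitin ligases, leiomodins and Z-disc partners) 21 rose and 6 fell by day 7 in each genotype, where in wild type 25.8% of all genes tested rose and 21.2% fell. Their summed level hardly moved, at 2075 to 2257 TPM at day 0, 2001 to 2345 TPM at day 7 and 1859 to 2110 TPM at day 21. Those with the smallest adjusted p in wild type were the myosin chaperone Unc45b, at 3.71 ± 0.23 on the log2 scale (edgeR adjusted p = 1.73e-06), Csrp3, at 6.05 ± 0.38 (adjusted p = 2e-06), and Klhl40, which stabilises thin filament proteins, at 3.64 ± 0.28 (adjusted p = 5.95e-06). In knockout they were Lmod3, a leiomodin that lengthens thin filaments, at 4.87 ± 0.26 (edgeR adjusted p = 5.46e-07), Unc45b and Klhl40. By day 21 6 had risen and 22 fallen relative to day 7 (all genes tested 28.4% and 28.4%), and 17 were higher and 6 lower than at day 0 (25.0% and 20.8%). Between genotypes 7 were higher and 7 lower in knockout at day 0 (14.8% and 12.6% of all genes), and at day 7 (1.08% and 0.680%) 2 were higher, Ankrd1 at 2.41 ± 0.42 (edgeR adjusted p = 0.0237) and Pdlim3 at 0.80 ± 0.15 (adjusted p = 0.0293), and 0 lower.

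The myosin heavy chains of smooth muscle and non-muscle cells moved in both directions. Myh11 fell by 1.71 ± 0.15 in wild type and fell by 2.01 ± 0.15 in knockout by day 7 (edgeR adjusted p = 1.36e-05 and 4.06e-06). The non-muscle chain Myh10 rose, by 1.38 ± 0.15 and 1.22 ± 0.15 (edgeR adjusted p = 4.84e-05 and 9.21e-05). Myh14, another non-muscle chain, fell in knockout alone, by 4.15 ± 0.24 (edgeR adjusted p = 8.54e-07), and was lower in knockout at day 7 by -2.80 ± 0.24 (adjusted p = 0.00104); the interaction was called, at -4.00 ± 0.31 (adjusted p = 0.00034).

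Some members share sequence with other genes, so their estimated counts depend on how reads were divided. Cut into words of the 76-base read length, the annotated transcripts of Myh1 had 20.6% of their words in another gene, mostly Myh2, and those of Myh2 15.3%, Myh7 13.5% (mostly Myh6), Myh4 9.38%, Myh8 6.85% and Myh3 1.77%. Mybph shared 40.5% with its neighbour Adora1, and Tnnc2 34.5% with Ube2c. Tpm3 shared 19.0% with Tpm3-rs7. TPM of the giants Ttn and Neb are uncertain in another way: the lengths implied by their counts were 4902 to 8469 bases for Ttn and 733 to 4085 for Neb, while the longest annotated transcripts have 106824 and 22489 bases.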

How the data were processed

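Per the labels' protocols, cDNA was made with the SmartSeq v4 protocol, libraries with Nextera XT, and sequencing gave single-end reads of 76 bases. The submitters' processing notes name kallisto 0.46.1, mm10 and GRCm38.p6. The authors deposited estimated counts per gene, not normalised, and the same genes in TPM, which scales counts for transcript length and library. They also deposited regularised log2 values of 21782 genes, corrected for a batch that the sources used here do not name. The steps in between are not given in the sources used here.

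Estimated counts were rounded, filtered with filterByExpr by group (15890 of 30154 genes), scaled by TMM (factors 0.915 to 1.09) and fitted with 1 mean per genotype and day over all 12 libraries by the robust quasi-likelihood method of edgeR 4.0.16 (R 4.3.3). The design leaves 6 residual degrees of freedom. P-values were adjusted by Benjamini-Hochberg over all genes tested in each of 8 comparisons and called under 0.05. The SE is the log2 fold change over the square root of F. Alternatives used DESeq2 1.42.0, limma 3.58.1 on log2(TPM + pseudocount) and on the deposited log2 values, other filters and scaling, a length offset, and leaving out libraries. The length offset and the fit without the 2 day 21 libraries that Sesn2 contradicts were chosen after seeing the data. Simulated counts were run through edgeR, DESeq2, the replicate block, limma with a pseudocount of 1 and the length offset. The offset was given a constant length there, which does not exercise it. The other filters, scaling and pseudocount and the deposited log2 values were not simulated.

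The members, classes and lists were chosen with earlier results of these data known. Full statistics are given, in each comparison, for the 6 heavy chains and for the 4 rising and 4 falling called members with the smallest adjusted p; other genes are named as references, or as at most 3 called genes of the assembly and other myosin lists. Tpm3, Actn2, Ttn, Des and the members compared by replicate number at day 21 were named after their values were seen. Replicate numbers did not pair the libraries. Gene positions and shared words come from GENCODE M21, promoters from RefSeq. Sequencing depth limits the precision of members under about 1 CPM.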

Additional observations from a re-analysis of the deposited data

Results flagged for a closer look

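The change from day 0 to day 7 differed between the genotypes for 15 members by the interaction term of the edgeR fit, and in each case every value is the log2 change in knockout minus that in wild type. It was 2.84 ± 0.70 (SE) for Myh1 (adjusted p = 0.0312), 2.47 ± 0.54 for Tnnt2 (0.0216), 2.21 ± 0.34 for Mylpf (0.00534), 1.88 ± 0.23 for Actn3 (0.00201) and 1.76 ± 0.35 for Myl1 (0.0142). It was 1.63 ± 0.39 for Actn2 (0.0259), 1.51 ± 0.33 for Mybph (0.0196), 1.44 ± 0.38 for Mybpc1 (0.0362), 1.33 ± 0.35 for Myom3 (0.0352) and 1.29 for both Myl4 (0.00729) and Acta1 (0.031). The lowest positive values were 1.10 ± 0.17 for Tcap (0.00481), 0.72 ± 0.20 for Tnnt1 (0.0391) and 0.63 ± 0.17 for Tpm1 (0.0362). A positive value is a more positive change in knockout, which for Tpm1 was a smaller fall. Myom1 alone had a more negative change in knockout, at -1.02 ± 0.24 (0.0249).

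Of these, Actn3, Tcap, Mylpf and Myl4 kept the call in each of the 24 alternatives, and Myom1 lost it in 10 and Myh1 in 13 of 23. Without wild-type replicate 1 or without knockout replicate 2 of day 0 the other members lost the call. These fits leave 1 library in that group, and far fewer of all genes were called in them too. The cause of the losses was not tested. In bulk libraries of unequal content the part of other cell types in these differences was not tested.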

How the results depend on the processing

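Of 92 results for single genes, 62 were called, and 15 of the 62 lost the call under at least 1 of 24 alternatives; 0 of the 62 reversed. Over all single-gene results and alternatives a call was lost 99 times and gained 25 times. The comparisons between days were the steadier ones. Leaving out 1 library gave 29 to 33 members (5172 to 7970 genes) for wild type at day 7 against day 0, 33 to 36 (5520 to 7980) for knockout, 28 to 32 (8030 to 8990) for day 21 against day 7 and 23 to 27 (5776 to 7362) for day 21 against day 0. It gave 4 to 15 members (582 to 2852 genes) for the interaction, 6 to 19 (1667 to 5166) for genotype at day 0, 0 to 9 (15 to 619) at day 7 and 0 to 2 (0 to 865) at day 21 by label. The cause of these and of the following shifts was not tested, beyond the fewer samples in each fit.

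For the interaction, limma on log2(TPM + 1) called 9 members and 1356 genes, with 0.1 in place of 1 it called 1334 genes, and without a filter 5 members and 1096 genes. Days 0 and 7 alone gave 3887 genes, and leaving out the 2 day 21 libraries that Sesn2 contradicts gave 3759. For genotype at day 0, limma without a filter called 9 members. At day 7 the members (genes) called were 11 (795) by DESeq2, 2 (138), 1 (110) and 0 (101) by limma with 1, with 0.1 and with 1 but no filter, 11 (825) on the batch-corrected log2 values, 15 (1169) from days 0 and 7 alone, 3 (166) with the length offset and 15 (1136) without the 2 libraries. At day 21 by label they were 3 (475) by DESeq2, 1 (176) on the batch-corrected values and 5 (1200) without the 2 libraries. Genes alone moved to 57 with no count filter, 23 with at least 10 counts in every library, 14 with limma without a filter and 0 with limma at 0.1 or the length offset.

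Replicate numbers did not pair the libraries: the correlation of same-numbered libraries' deviations was -0.143 to 0.07 over 15 pairs of groups, 0 of them over 0.1. With the replicate number as a block, members called were 32, 34, 13, 29 and 27 for the comparisons between days and the interaction in the order used above (wild type, knockout, interaction, day 21 against day 7, day 21 against day 0). They were 13, 4 and 0 for genotype at days 0, 7 and 21, with 1 gene called at day 21. The block was among the alternatives other than leaving out 1 library. In those, genes called were 6695 or more for wild type, 6709 or more for knockout and 1096 to 3887 for the interaction. They were 8166 to 9700 for day 21 against day 7 and 6008 to 8140 for day 21 against day 0. For genotype they were 3121 to 6091 at day 0 and 101 to 1169 at day 7.

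The values that changed sign were uncalled heavy chains. Without wild-type day 7 replicate 2 or 1, Myh2 at day 7 in wild type was 0.27 or -1.83, and Myh7 in knockout was -0.20 or 1.59 without knockout day 7 replicate 1 or 2. In the interaction Myh4 was 0.035 by limma with 1, with or without the filter, and ranged from -1.6 to 0.010 without 1 library each. Myh8 was 0.53 by both of those limma fits, 0.21 with 0.1 and 0.28 on the batch-corrected values. For day 21 against day 7 Myh7 was 0.016 on the batch-corrected values, 0.057 with the length offset and -0.56 to 0.48 without 1 library each. For genotype at day 7, leaving out 1 library gave -0.75 to 0.25 for Myh1, -0.99 to 2.01 for Myh2 and -0.0044 to 1.6 for Myh4. By label at day 21 Myh3 was -0.87 without the 2 libraries, and -0.77 to 3.94 without 1 library each. Low counts limit Myh2, Myh7 and, at day 0, Myh3 and Myh8.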
